A study of Homo sapiens with 12 samples.

Results

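The Schlafen genes SLFN5, SLFN11, SLFN12 and SLFN13 were described in MV3 cells, a human melanoma cell line that came from a metastasis in a lymph node. They are 4 of the 58288 gene identifiers counted. Their symbols were matched exactly to the authors' gene names, and all 12 samples were used. SLFN5 was chosen by its measured RNA level, which was raised about equally in all 3 conditioned media, so its values are a description with no test. SLFN11, SLFN12 and SLFN13 were added as relatives of SLFN5 by family name. They were tested only between conditioned media, and their values against Ctrl are also a description.

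MV3 cells were grown with 10% serum. They were then kept for 3 h in RPMI with 1% serum and for 24 h in 1 of 4 media, with 3 samples each. M1 medium had been on THP-1 cells, a monocyte line turned into macrophages with the phorbol ester PMA and then polarized with lipopolysaccharide and interferon-gamma. M2 medium came from PMA-treated THP-1 cells polarized with IL4 and IL13, and M0 medium from PMA-treated THP-1 cells with no further polarization. Ctrl was fresh RPMI that had been on no cells. Every comparison with Ctrl therefore includes conditioning itself, and carry-over of PMA, lipopolysaccharide or the cytokines in the media was not measured. The study is a single cell line, and the labels do not say whether replicates were separate cultures, so the p-values below reflect the scatter of these samples alone, and that scatter may be technical.

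Schlafen proteins are a vertebrate family that many cells raise in response to interferon. Interferon receptors signal through JAK kinases to transcription factors, STAT2 and IRF9 among them, which switch on antiviral genes. The human family members share a core domain, and several cut or bind transfer RNA and so limit protein synthesis. SLFN5 is a nuclear member that has been studied in melanoma cells as an interferon-inducible restraint on growth and invasion. SLFN11 is best known for sensitizing tumour cells to DNA-damaging drugs by acting at stalled replication forks, and it also restricts retroviral protein synthesis. SLFN12 becomes an active ribonuclease when small molecules glue it to the phosphodiesterase PDE3A, and SLFN13 cleaves transfer and ribosomal RNA.

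The genes lie together on human chromosome 17 (GRCh38, GENCODE release 29). SLFN5, ENSG00000166750, occupies chr17:35243036-35273655 on the plus strand. SLFN11, ENSG00000172716, lies 76.6 kb further on at chr17:35350305-35373701. SLFN12, ENSG00000172123, is at chr17:35411060-35433283 and SLFN13, ENSG00000154760, at chr17:35435096-35448837. These 3 genes are on the minus strand, and the 4 genes together span 206 kb. No annotated gene overlaps any of the 4.

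RefSeq promoters (build GRCh38.p14, 250 bases before to 50 after the start) were at hand only for SLFN11 and SLFN12. SLFN5 and SLFN13 had no entry. The promoters are SLFN11 at chr17:35373572-35373871 and SLFN12 at chr17:35433125-35433424, both on the minus strand and printed 5′ to 3′. Capitals mark the matches found.
SLFN11: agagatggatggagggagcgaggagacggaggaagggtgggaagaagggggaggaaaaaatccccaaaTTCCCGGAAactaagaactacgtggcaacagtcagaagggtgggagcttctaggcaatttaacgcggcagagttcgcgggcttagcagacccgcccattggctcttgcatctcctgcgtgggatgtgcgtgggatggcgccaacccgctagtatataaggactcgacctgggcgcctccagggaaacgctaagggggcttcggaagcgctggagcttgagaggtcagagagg
SLFN12: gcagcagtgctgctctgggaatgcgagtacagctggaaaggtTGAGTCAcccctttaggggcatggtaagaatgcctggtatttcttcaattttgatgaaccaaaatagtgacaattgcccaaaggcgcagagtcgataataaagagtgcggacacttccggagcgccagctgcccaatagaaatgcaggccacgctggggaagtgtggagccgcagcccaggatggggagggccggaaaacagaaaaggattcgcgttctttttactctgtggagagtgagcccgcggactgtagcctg
The letters searched on both strands were GAAANNGAA (core of the interferon-stimulated response element), TTCNNNGAA (GAS, the site form bound by STAT dimers), GGANTTNCC (NF-kB), TGATGNAA (CARE, the amino acid response element) and TGANTCA (AP-1). SLFN11 held a GAS match that begins at position -182 from the start, and SLFN12 held an AP-1 match that begins at -208. No other match was found, and these matches do not overlap. Of 35116 RefSeq promoters of the same length, 7.66% hold the GAS letters, 7.71% the AP-1 letters, 8.11% the interferon-response core, 4.27% the NF-kB letters and 3.62% the CARE letters. A match describes letters in this window and shows no binding.

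SLFN5 RNA was abundant in every conditioned medium and scarce in fresh medium, in read counts scaled to library size (CPM). In M1 medium it had 337, 312 and 319 CPM. In M2 medium it had 305, 309 and 314 CPM, and in M0 medium 278, 301 and 250 CPM, against 14.8, 11.96 and 12.2 CPM in Ctrl. All 9 conditioned samples lay above all 3 Ctrl samples, and the lowest value among the conditioned samples was that of M0 replicate 3. Levels above all Ctrl samples were common, at 35.9% of all genes in M1, 36.9% in M2 and 32.5% in M0. Means were 322 ± 13.1 CPM in M1, 310 ± 4.56 CPM in M2, 276 ± 25.4 CPM in M0 and 13.0 ± 1.56 CPM in Ctrl (SD, n = 3 each).

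The fitted log2 fold change of SLFN5 over Ctrl was 4.63 ± 0.10 (SE) in M1, 4.57 ± 0.10 in M2 and 4.41 ± 0.12 in M0, or 24.8-, 23.8- and 21.2-fold. These 3 comparisons share the Ctrl samples. Over all 14088 genes tested, the median log2 fold change was -0.00 in M1 against Ctrl, 0.02 in M2 against Ctrl and 0.00 in M0 against Ctrl. Ordered by fold change, SLFN5 ranked 139 of 14088 genes in M1, 78 in M2 and 79 in M0. Among the conditioned media, the M1 and M2 samples overlapped (log2 difference 0.06 ± 0.04). The M1 samples did not overlap with M0 (0.22 ± 0.08), nor did the M2 samples overlap with M0 (0.17 ± 0.08). A difference without overlap was common in these data. It was seen for 59.2% of genes in M1 against M0, for 46.5% in M2 against M0 and for 50.1% in M1 against M2.

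**Figure D1:**
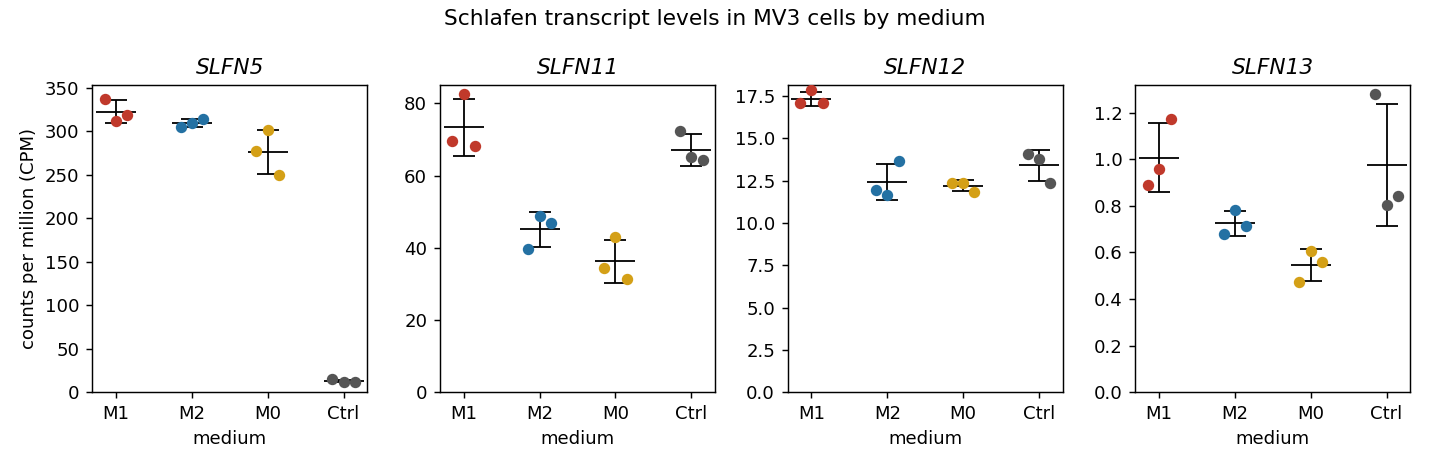
CPM (linear axes from 0, a separate scale for each gene) of SLFN5, SLFN11, SLFN12 and SLFN13 in MV3 cells after 24 h in M1, M2, M0 or Ctrl medium. Points are the 3 samples of a medium and bars are mean ± SD; SLFN5 averages 322 CPM in M1, 310 in M2, 276 in M0 and 13.0 in Ctrl, while SLFN11 has its lowest mean, 36.3 CPM, in M0.

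SLFN11 differed among the conditioned media and was highest in M1. It had 69.7, 82.5 and 68.1 CPM in M1 and 39.7, 48.8 and 47.0 CPM in M2. It had 34.5, 43.0 and 31.3 CPM in M0, and 72.3, 65.1 and 64.2 CPM in Ctrl. All M1 samples lay above all M2 and M0 samples, and M2 and M0 overlapped. Of all genes, 29.1% had M1 samples above all M0 samples and 24.2% above all M2 samples. SLFN11 rose 2.03-fold in M1, at 73.4 ± 7.89 CPM, against M0, at 36.3 ± 6.04 CPM (log2 1.02 ± 0.16 SE, adjusted p = 3.46e-06, edgeR's quasi-likelihood test). It was also higher in M1 than in M2, which had 45.2 ± 4.82 CPM (log2 0.70 ± 0.13 SE, adjusted p = 0.000201).

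The difference of SLFN11 between M2 and M0 lay at the threshold (log2 0.32 ± 0.16 SE, adjusted p = 0.0513 with edgeR). DESeq2 called it (adjusted p = 0.0365), and so did edgeR with the replicate number as a block (adjusted p = 0.0279). With M0 replicate 3 and M2 replicate 2 both left out the log2 difference was 0.17 (adjusted p = 0.474). Ctrl samples averaged 67.2 ± 4.42 CPM. Described against Ctrl with no test, SLFN11 had log2 values of 0.13 ± 0.10 in M1, -0.58 ± 0.11 in M2 and -0.90 ± 0.15 in M0. The M1 samples overlapped with Ctrl, while all M2 and M0 samples lay below it, as did those of 34.6% of all genes in M2 and 31.9% in M0. Without regard to direction, no overlap with Ctrl was seen for 71.3% of genes in M1, 71.5% in M2 and 64.4% in M0.

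SLFN12 was higher in M1 than in either other conditioned medium. It had 17.1, 17.8 and 17.1 CPM in M1 and 11.96, 11.7 and 13.7 CPM in M2. It had 12.4, 12.4 and 11.8 CPM in M0, and 14.1, 13.8 and 12.4 CPM in Ctrl. The M1 samples lay above all 9 others, and the M2, M0 and Ctrl samples overlapped. Of all genes, 29.1% had M1 samples above all M0 samples, 24.2% above all M2 samples and 35.9% above all Ctrl samples. SLFN12 rose 1.42-fold in M1 against M0, with means of 17.3 ± 0.427 CPM in M1 and 12.2 ± 0.309 CPM in M0 (log2 0.51 ± 0.03 SE, adjusted p = 0.000206, edgeR). It was 1.39-fold higher in M1 than in M2, where the mean was 12.4 ± 1.08 CPM (log2 0.48 ± 0.07 SE, adjusted p = 0.000597). In M2 against M0 the log2 difference was 0.03 ± 0.07 SE (adjusted p = 0.862).

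SLFN13 was scarce, with 35, 30 and 43 reads in M1 and 25, 22 and 20 reads in M2. It had 14, 13 and 16 reads in M0, and 56, 24 and 27 reads in Ctrl. As CPM, this was 1.01 ± 0.148 CPM in M1, 0.725 ± 0.0518 CPM in M2, 0.546 ± 0.0677 CPM in M0 and 0.976 ± 0.263 CPM in Ctrl (SD, n = 3 each). The 3 conditioned media did not overlap with each other, and Ctrl replicate 1 was the highest sample of all. No overlap was seen for 59.2% of all genes in M1 against M0, 46.5% in M2 against M0 and 50.1% in M1 against M2. SLFN13 rose 1.85-fold in M1 against M0 (log2 0.89 ± 0.15 SE, adjusted p = 0.00868, edgeR). It did not pass in M2 against M0 (log2 0.41 ± 0.11 SE, adjusted p = 0.285) or in M1 against M2 (log2 0.48 ± 0.13 SE, adjusted p = 0.135).

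SLFN13 values are uncertain because the gene is similar in sequence to SLFN11. Of the 50-base stretches of SLFN13 transcripts, the length of the reads, 7.03% also occur in other genes, mainly SLFN11. For SLFN11 the share is 9.69%, mainly in SLFN13 and SLFN12L, for SLFN12 it is 1.32% and for SLFN5 0.196%. SLFN13 reads made up 1.38% of the SLFN11 reads in M1, 1.61% in M2, 1.52% in M0 and 1.49% in Ctrl, so this share was nearly level across media. Whether reads counted for SLFN13 came from SLFN11 was not tested.

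Of the 3 relatives, all 3 were called higher in M1 against M0, a comparison in which 25.5% of all genes were called higher and 52.2% were called in either direction. Whether the SLFN13 call is separate from that of SLFN11 was not tested, since some SLFN13 reads may be SLFN11 reads. In M1 against M2, 2 of 3 were called higher, beside 15.9% of all genes called higher and 32.5% called in either direction. In M2 against M0, 0 of 3 were called by edgeR, 1 had an unadjusted p under 0.05, and DESeq2 and limma called 1 each; 25.2% of all genes were called there. M1 against M0 and M1 against M2 share the M1 samples. The joint test of any difference among M1, M2 and M0 gave adjusted p = 7.44e-06 for SLFN11, 0.000204 for SLFN12 and 0.0216 for SLFN13, and it called 56.6% of all genes.

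The remaining relatives were at or near 0. SLFN14, whose product cleaves ribosomal RNA, had 1 read in each of M2 replicates 2 and 3 and no read in the other samples. SLFN12L had 1 read in each M2 sample and no read elsewhere. A count of 0 allows up to 3 reads, or 0.0685 to 0.140 CPM in a single library, counting error only. SLFNL1, a distant relative on chromosome 1, had at most 12 reads in a sample. None of these genes passed the filter on low counts, so the family differences above rest on the 4 members that did.

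Per kb of annotated exon, the order of the Schlafen genes differed between conditioned and fresh medium. SLFN5 stood at 30.1 CPM per kb in M1, 28.9 in M2 and 25.8 in M0, against 1.21 in Ctrl. SLFN11 stood at 12.3 CPM per kb in M1, 7.55 in M2, 6.06 in M0 and 11.2 in Ctrl. SLFN12 stood at 4.87 in M1, 3.49 in M2, 3.43 in M0 and 3.77 in Ctrl, and SLFN13 at 0.108 in M1, 0.0777 in M2, 0.0585 in M0 and 0.105 in Ctrl. In each conditioned medium the order was SLFN5, SLFN11, SLFN12, SLFN13, and no samples of neighbouring genes overlapped. In Ctrl it was SLFN11, SLFN12, SLFN5, SLFN13.

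The SLFN5 transcript made up 63.6% of the summed level per kb of the 4 genes in M1, 72.3% in M2 and 73.0% in M0, against 7.40% in Ctrl. The SLFN11 share was 25.9% in M1, 18.8% in M2 and 17.1% in M0, against 68.9% in Ctrl. The sum itself was 47.4 CPM per kb in M1, 40.0 in M2, 35.3 in M0 and 16.3 in Ctrl. In these bulk samples, fewer cells that express a gene and less RNA per cell cannot be told apart.

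**Figure D2:**
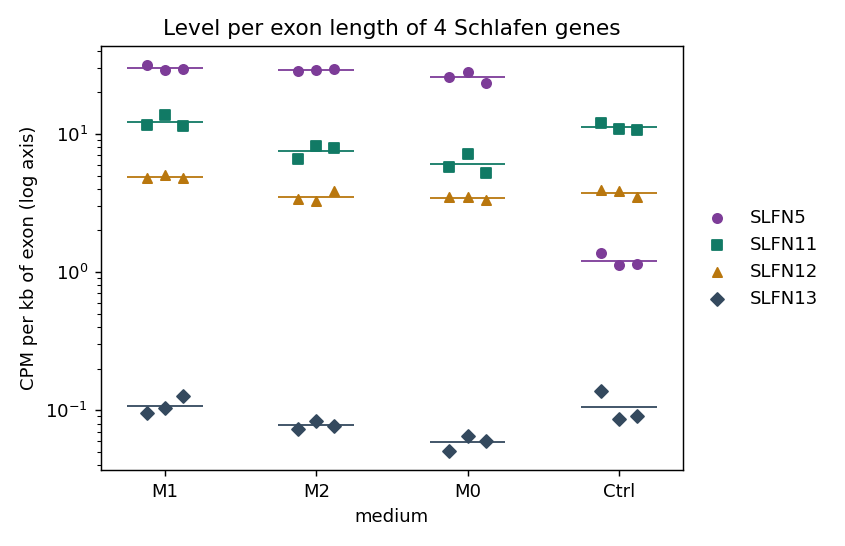
CPM per kb of annotated exon (log axis) for SLFN5, SLFN11, SLFN12 and SLFN13 in M1, M2, M0 and Ctrl medium. Points are samples and lines are means of 3; SLFN5 lies above SLFN11 in the 3 conditioned media (30.1 against 12.3 CPM per kb in M1) and below SLFN12 in Ctrl (1.21 against 3.77).

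The interferon pathway was described next to the Schlafen genes because the family is interferon-linked. In M1 against M0, all 26 listed interferon-stimulated genes rose, with a median log2 fold change of 5.25 beside -0.01 over all genes, of which 25.5% rose. OAS1, a sensor of double-stranded RNA, rose by log2 8.15 ± 0.48 SE (adjusted p = 3.44e-13, edgeR), and IFI44L by 7.80 ± 0.20 SE (adjusted p = 2.12e-14). Of 14 genes of interferon receptor and ISGF3 signalling, 13 rose and 1 did not pass (median 1.22). STAT2 rose by log2 2.68 ± 0.18 SE (adjusted p = 4.38e-11), IRF9 by 3.89 ± 0.19 and IRF1, an interferon-gamma response factor, by 2.14 ± 0.11. IRF9 was scarce, with 1.91 CPM in M1 and 0.123 CPM in M0. SLFN5 had a log2 difference of 0.22 in M1 against M0. This small value largely restates the choice of SLFN5 for a raise about equal in all 3 conditioned media.

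Against Ctrl, these genes moved in both directions in M0 medium. Of the 26 interferon-stimulated genes, 7 rose, 5 fell and 14 did not pass (median log2 0.19, beside 0.00 over all genes), while 31.1% of all genes rose and 30.6% fell (61.7% in all). IRF9 fell by 2.27 on the log2 scale, with 0.123 CPM in M0 and 0.596 CPM in Ctrl (adjusted p = 0.000347, edgeR). IRF1 rose by log2 0.36 ± 0.15 (adjusted p = 0.0055), and STAT2 did not pass (-0.02 ± 0.18, adjusted p = 0.908). XAF1, an apoptosis-linked interferon target, rose by log2 2.59 ± 0.13 (adjusted p = 2.44e-10) and IFIT1 fell by 0.78 (adjusted p = 0.000218). The SLFN5 log2 value in the same comparison was 4.41, which restates the raise by which SLFN5 was chosen.

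In M2 against M0, 3 of the 26 interferon-stimulated genes fell and 23 did not pass, with a median of 0.00. Of all genes, 12.7% fell and 12.5% rose there, so the share that fell was near the background. Of the 14 receptor and ISGF3 genes 5 rose and 9 did not pass. STAT2 rose by log2 0.76 ± 0.18 SE (adjusted p = 0.000787, edgeR), IRF9 by 2.22 ± 0.15 (adjusted p = 0.00343) and IRF1 by 0.57 ± 0.10 (adjusted p = 0.00137). IRF9 was scarce, with 0.594 CPM in M2 and 0.123 CPM in M0, close to the level of 3 reads in a library (0.0685 to 0.140 CPM). In M2 against Ctrl, IRF9 did not pass (log2 -0.05, adjusted p = 0.895, edgeR). In M1 against M2, 26 of 26 interferon-stimulated genes (median 5.09) and 11 of 14 receptor and ISGF3 genes (median 0.97) rose, beside 15.9% of all genes. Against Ctrl, 9 of the 26 rose and 4 fell in M2, where 34.1% of all genes rose and 32.4% fell (66.5% in all).

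**Figure D3:**
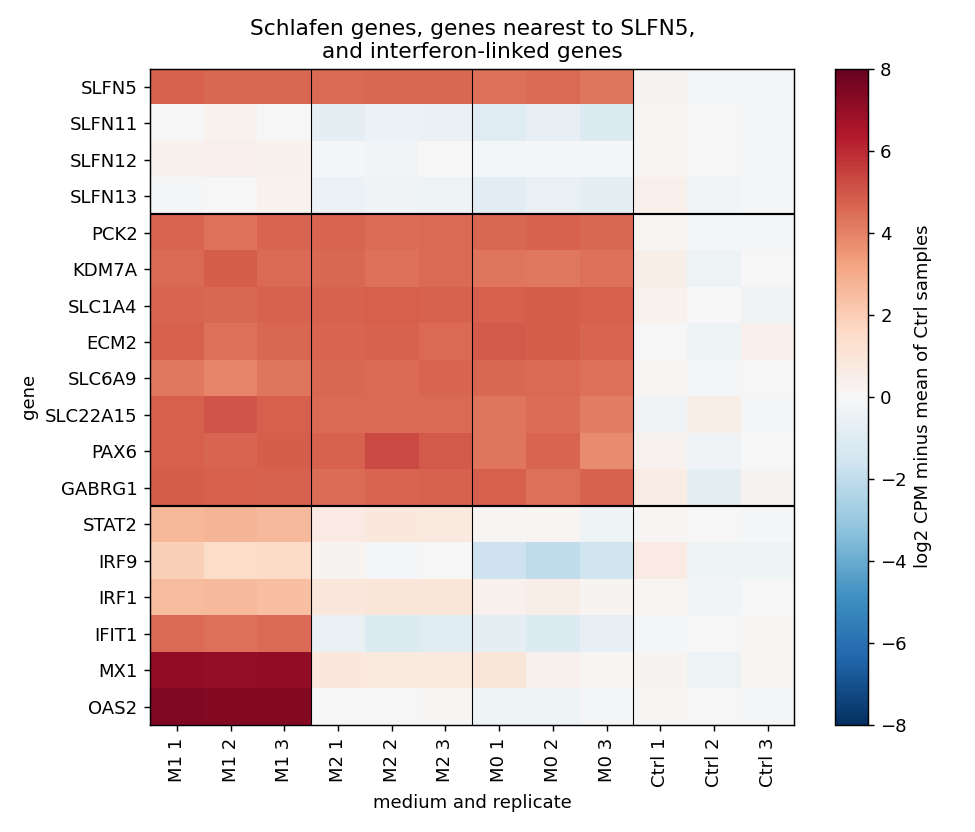
Log2 CPM minus the mean of the Ctrl samples (colour) for the 4 Schlafen genes, the 8 genes nearest to SLFN5 in pattern and 6 interferon-linked genes, in each of the 12 samples. SLFN5 is above 4 in all 9 conditioned samples, whereas MX1 and OAS2 are far above Ctrl in the M1 samples and near it in the M2 and M0 samples.

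The genes closest to SLFN5 in pattern were found by the root mean square difference of log2 CPM over the 12 samples, each gene centred on its Ctrl mean, among 12394 genes. They are a description with no test. PCK2, a mitochondrial enzyme of phosphoenolpyruvate synthesis, was nearest at 0.137, with 484 CPM in M1, 483 in M2, 506 in M0 and 20.5 in Ctrl. KDM7A, a histone demethylase, followed at 0.192, and SLC1A4, a neutral amino acid transporter, at 0.233. The next were ECM2 at 0.260, the glycine transporter gene SLC6A9 at 0.265, SLC22A15 at 0.278, PAX6 at 0.280 and GABRG1 at 0.305. No listed interferon-stimulated gene was among these 8. This absence largely restates the choice of SLFN5, which was picked for being raised about equally in every conditioned medium. All 26 listed interferon-stimulated genes were higher in M1 than in M0, so they could hardly be near it by this measure. Whether SLFN5 is linked to interferon here was not tested.

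The relatives of SLFN5 were far from it by the same measure. The distance was 4.34 to SLFN11, 3.90 to SLFN12 and 4.25 to SLFN13. These distances largely restate the raise over Ctrl by which SLFN5 was chosen. Among the relatives, SLFN11 and SLFN13 were 0.224 apart, SLFN12 and SLFN13 0.410 and SLFN11 and SLFN12 0.482. Whether SLFN13 lay near SLFN11 because some of its reads came from SLFN11 was not tested. Among the nearest to SLFN11 were KDELR3 at 0.0989 and NAV1 at 0.148. Nearest to SLFN12 were ITGB1 at 0.0685, AMOTL1 at 0.0799 and RB1 at 0.0812, and nearest to SLFN13 were ENC1 at 0.149, SLC39A7 at 0.150 and MOGS at 0.154.

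SLFN5 was not the only gene with a raise of similar size in all 3 media. Against Ctrl, 129 of 14088 genes had a log2 fold change of at least 3 in all 3 conditioned media, and in 42 of these, SLFN5 included, the 3 values lay within 0.5 of each other. SLFN5 spanned 0.22. PCK2 spanned 0.07, and SLC7A11, the cystine importer, had 3.83 in M1, 3.95 in M2 and 3.93 in M0. Both limits were set after the values were seen, as was the choice of SLC7A11.

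Along the chromosome, AC022916.1 lies at chr17:35231450-35242963 on the minus strand, with antisense as its annotated gene type. It starts 73 bases from the start of SLFN5, on the opposite strand and without overlapping it. It was chosen after its values were seen. It had 30, 13 and 15 reads in M1, 20, 14 and 10 in M2 and 17, 16 and 20 in M0, against 2, 7 and 3 reads in Ctrl. All 9 conditioned samples had more reads than any Ctrl sample. Levels above all Ctrl samples were seen for 35.9% of all genes in M1, 36.9% in M2 and 32.5% in M0. Described with no test, AC022916.1 had log2 values over Ctrl of 2.19 ± 0.50 SE in M1, 2.00 ± 0.46 in M2 and 2.50 ± 0.44 in M0. In M1 against Ctrl, 35.2% of all genes rose and 70.2% were called in either direction. Its mean was 0.529 CPM in M1, 0.466 CPM in M2 and 0.673 CPM in M0. The log2 difference was -0.31 ± 0.28 SE in M1 against M0 and 0.19 ± 0.31 in M1 against M2. In M2 against M0 it was -0.50 ± 0.19. There all M2 samples lay below all M0 samples, as did those of 23.8% of all genes. AC022916.1 was not called between conditioned media, but with 10 to 30 reads a sample a difference may be missed. The size of its rise rests in part on Ctrl replicate 2, without which the log2 values were 2.95 in M1, 2.75 in M2 and 3.24 in M0. The libraries were stranded per the labels' protocols, but the strand setting of the counting is not given in the sources used here, and whether some of these reads came from SLFN5 was not tested.

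Between SLFN11 and SLFN12 lie noncoding genes that were also chosen after their values were seen. Described with no test, the log2 difference in M1 against M0 was 0.93 ± 0.24 SE for AC060766.7, 0.57 ± 0.15 for AC060766.4 and 0.43 for AC060766.1. Outside the cluster, 9 of 10 listed neighbours were tested. In M1 against M0, 6 of them fell and 3 did not pass, with a median of -0.24, while 26.7% of all genes fell; under 6 of 20 alternatives 1 also rose. The GTPase gene RASL10B fell by 1.23 and the ribosome assembly gene NLE1 by 0.65.

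**Figure D4:**
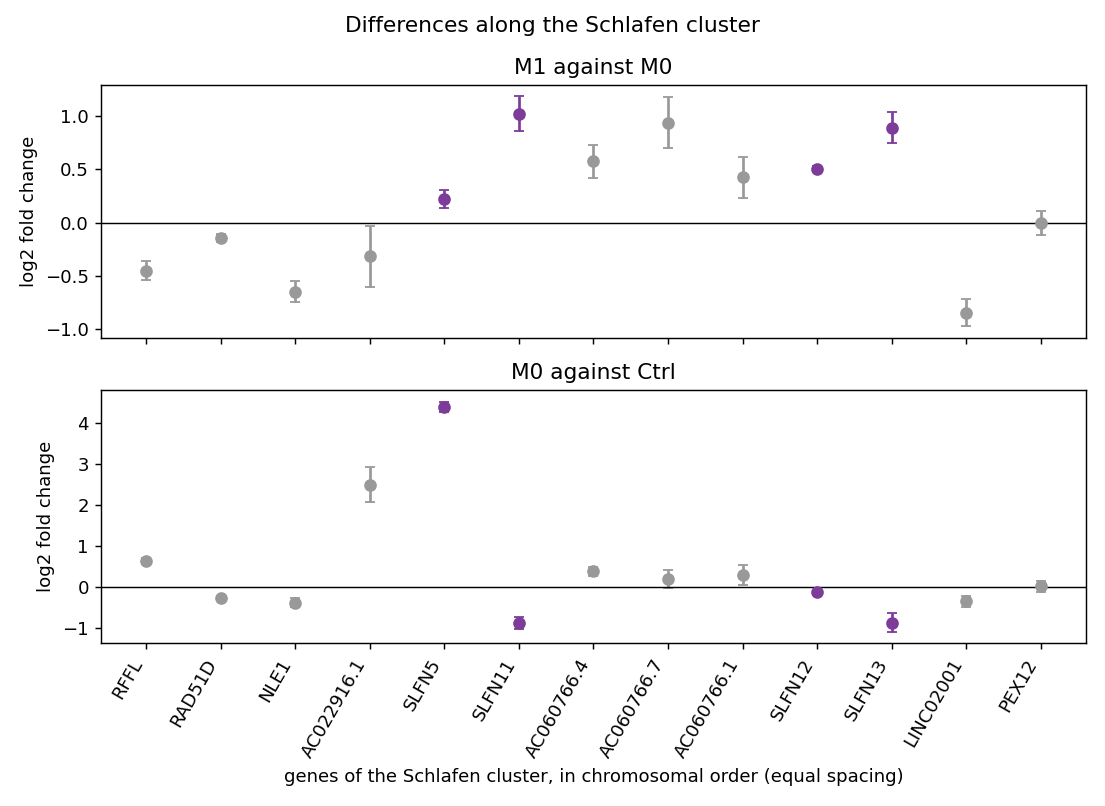
Fitted log2 fold changes ± SE of the tested genes in and beside the Schlafen cluster, in chromosomal order at equal spacing, for M1 against M0 (top) and M0 against Ctrl (bottom), with the 4 Schlafen genes in purple. In M1 against M0, SLFN11 at 1.02, SLFN12 at 0.51 and SLFN13 at 0.89 lie above SLFN5 at 0.22; in M0 against Ctrl, SLFN5 at 4.41 and AC022916.1 at 2.50 stand above the rest.

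Genes for partners and targets of Schlafen proteins were described next. Of 12 listed, 10 were tested. In M1 against M0, 1 rose, 6 fell and 3 did not pass (median -0.22), and 3 fell with M0 replicate 3 and M2 replicate 2 left out. Of all genes, 25.5% rose and 26.7% fell in this comparison. MMP14, a membrane matrix metalloproteinase studied downstream of SLFN5, was the gene that rose, with 781 CPM in M1 and 492 CPM in M0 (log2 0.67 ± 0.07 SE, adjusted p = 8.13e-06, edgeR). CDT1, a replication licensing factor that SLFN11 has been reported to target for degradation, fell by 0.58 (adjusted p = 0.00148), and RPA3, a subunit of the single-strand DNA binding complex that recruits SLFN11, fell by 0.85.

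In M0 against Ctrl, 2 of these 10 genes rose, 6 fell and 2 did not pass (median -0.40), and the number that rose was 1 under 13 of 20 alternatives, leaving out either M0 replicate 1 or 3 among them. Of all genes, 31.1% rose and 30.6% fell there. CDT1 stood at 16.3 CPM in M0 and 32.3 CPM in Ctrl (log2 -0.99 ± 0.13 SE, adjusted p = 5.2e-06, edgeR) and RPA1 fell by 0.83. PDE3A, the partner that activates SLFN12, was too low to be tested, with means of 0.0548 CPM in M1, 0.0446 in M2, 0.0380 in M0 and 0.0701 in Ctrl.

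Other RNA-cleaving or translation-limiting effectors rose in M1 against M0. Of 8 listed genes, 7 rose and 1 did not pass in M1 against M0 (median 1.70), beside 25.5% of all genes that rose. In M0 against Ctrl 2 rose, 4 fell and 2 did not pass (median -0.19), beside 31.1% of all genes that rose and 30.6% that fell, and 2 fell without Ctrl replicate 1 or without M0 replicate 1. SAMD9, an antiviral inhibitor of translation, had 234.7 CPM in M1 and 22.1 CPM in M0 (log2 3.41 ± 0.09 SE, adjusted p = 1.59e-13, edgeR), and in M0 against Ctrl it fell by 1.31 (adjusted p = 4.23e-09). SAMD9L rose by log2 2.98 ± 0.08 and ZC3H12A, which degrades inflammatory messenger RNAs, by 2.37 ± 0.24 in M1 against M0.

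Genes of the DNA damage and replication checkpoint, the setting in which SLFN11 is best known, moved in both directions, more of them down than up. Of 11 genes, 3 rose, 6 fell and 2 did not pass in M1 against M0 (median -0.20), and 3 rose, 7 fell and 1 did not pass in M0 against Ctrl (median -0.38). Of all genes, 25.5% rose and 26.7% fell in M1 against M0, and 31.1% rose and 30.6% fell in M0 against Ctrl. The number of listed genes that rose was near this background in both comparisons, and the number that fell was above it. No set test was run. CDKN1A, the cell cycle inhibitor p21, rose by log2 2.08 ± 0.34 SE (adjusted p = 4.96e-07, edgeR) in M1 against M0 and by 2.41 ± 0.35 in M0 against Ctrl (adjusted p = 2.19e-07). CDC45, a subunit of the replicative helicase, fell by 1.53 in M1 against M0, and MCM3, another helicase subunit, fell by 1.56 in M0 against Ctrl.

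The 12 libraries held 21788397 to 42921242 counts. Markers of macrophages, whose RNA could come with the medium, were at a low level in every group. The 16 genes summed to 1.82 to 1.90 CPM in M1, 1.49 to 2.09 CPM in M2 and 1.65 to 1.82 CPM in M0, against 1.74 to 1.83 CPM in Ctrl, and AIF1 and C1QB had no read in any sample. The level sum hides members that differed from Ctrl. MSR1, a scavenger receptor, rose to 0.724 CPM in M1, 0.643 CPM in M2 and 0.561 CPM in M0, against 0.181 CPM in Ctrl (log2 2.00, 1.79 and 1.63, adjusted p = 0.000154, 0.000709 and 0.0024, edgeR), and CD33 fell by 0.83 on the log2 scale in M1 against Ctrl (adjusted p = 0.0236). CD14, too low to be tested, had 0.0357 CPM in M1, 0.0209 CPM in M2 and 0.0112 CPM in M0, against 0.188 CPM in Ctrl, and PTPRC was likewise lower in every conditioned medium than in Ctrl. Whether RNA of macrophages has a part in the Schlafen values was not tested. Of 8 melanocytic markers, TYR and S100B had no read in any sample, and the sum was at most 3.37 CPM. The 6 markers of dedifferentiated melanoma summed to 3150 to 4424 CPM. AXL, at 1177 CPM or more in every sample, EGFR and NT5E carried most of that sum in all groups, while NGFR was at 0 to 0.0466 CPM. The data thus show part of the dedifferentiated markers and almost none of the melanocytic ones.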

How the data were processed

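Stranded mRNA libraries from 12 samples were sequenced as single 50 nt reads in repeated runs, per the labels' protocols. Per the submitters' processing notes, build hg38, STAR 2.5.4b, Bowtie2 2.2.3, Trimmomatic 0.36, FastQC 0.11.7, DESeq2 1.20.0 and R (3.5.0, 3.3.3) are named, with no role. How reads were counted, with which strand setting and annotation, is not given in the sources used here. Raw read counts were deposited by the authors for 58288 genes, and 12 of 12 sample files equalled the columns of the joint table. The authors also deposited variance-stabilized values on a log2-like scale, named as such, used here for gene names only. Groups came from the labels. The members and gene lists were chosen with earlier results of these data known.

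In R 4.3.3, edgeR 4.0.16 was applied to the counts: the quasi-likelihood F test on all 12 samples, group means, TMM scaling, filterByExpr (minimum count 10, minimum total 15; 14088 genes left), Benjamini-Hochberg adjustment over all genes at 0.05. The common biological coefficient of variation was 0.0831. Levels are CPM with TMM-scaled library sizes. The SE values were computed from log2 CPM (prior count 2) of the samples, another estimate than the fitted fold change beside them. Exon lengths and coordinates are from GENCODE 29, which matched 58025 identifiers without their version, and may differ from the annotation counted. Replicates differed by more than sampling noise (chi-square per degree of freedom 3.01 to 25.6). The fit was tested on simulated data with known changes.

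Named genes were the family, STAT2, IRF9, IRF1, PDE3A and CDT1, at most 3 list members by fold change, the 8 genes nearest to SLFN5 and the 3 nearest to each relative; some of these are not reported here. IFIT1, MX1, OAS2, SLC7A11 and the noncoding genes of the locus were chosen after their values were seen. Alternatives were other scalings, no filter, DESeq2 1.42.0, limma 3.58.1, fits of the compared groups alone, a replicate block, libraries left out and longest-transcript lengths.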

Additional observations from a re-analysis of the deposited data

How the results depend on the processing

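SLFN5 kept its direction against Ctrl under all 60 alternatives, with log2 values of 4.54 to 4.74 in M1, 4.50 to 4.66 in M2 and 4.32 to 4.49 in M0. The calls of SLFN11 and SLFN12 in M1 against M0 and in M1 against M2, and of SLFN13 in M1 against M0, were kept under every alternative run (20 each), with adjusted p of at most 0.0382. AC022916.1, chosen after its values were seen, kept its direction against Ctrl under 60 of 60. Its log2 values were 1.70 to 2.95 in M1, 1.501 to 2.75 in M2 and 1.99 to 3.24 in M0 without single replicates.

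SLFN11 in M2 against M0 passed the threshold with library totals only (log2 0.354, adjusted p = 0.0323), no filter (0.308, adjusted p = 0.00557), DESeq2 (0.315, adjusted p = 0.0365), limma (0.324, adjusted p = 0.0466) and the replicate block (0.324, adjusted p = 0.0279). Without single replicates it ran from 0.228 to 0.454 (adjusted p of 0.00641 to 0.217). The cause was not tested. SLFN12 in M2 against M0 ran from -0.0466, without M2 replicate 3, to 0.0679 and was never called. The 3553 genes called in M2 against M0 became 520 without both M0 replicate 3 and M2 replicate 2, and 1595 to 4210 without single replicates, the lowest without M0 replicate 3; 1905 were called without M2 replicate 3 and 1933 without M2 replicate 2.

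Longest-transcript lengths gave 14.6, 8.98, 7.21 and 13.4 CPM per kb for SLFN11 in M1, M2, M0 and Ctrl, 6.83, 4.90, 4.81 and 5.28 for SLFN12 in the same order, and 0.0856 for SLFN13 in M2, because those lengths are shorter; the order of the genes was the same. Of 480 list counts under the alternatives, 29 moved by more than 1.5 times. Samples of the same replicate number were not treated as paired in the main fit. Their deviations from group means correlated at -0.0775 to 0.154, over 0.1 in 6 of 18 pairs. With 3 samples a group this cannot exclude a pairing. The replicate block changed no call of a Schlafen gene other than that of SLFN11 in M2 against M0. SLFN13 was limited by depth, with 13 to 56 reads a sample.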
